A study of Mus musculus with 4 samples.

Results

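The lysosome is the acidic compartment in which cells break down proteins, glycans and lipids. A set of 47 lysosomal genes was followed in bulge cells of mouse skin, where hair follicle stem cells reside. The genes were listed by name: cathepsins and legumain (10), glycosidases, a sulfatase, phosphatases and other soluble hydrolases (12), sphingolipid activators and sterol carriers (4), membrane proteins (4), the transcription factors Tfeb and Tfe3 (2), and subunits of the vacuolar proton pump (15). All 47 were found among the 55536 genes of the count table, and all 47 passed the filter on low counts, which left 14259 genes. The list was selected on gene function with the knockout minus control difference of these libraries in view, Ctsl having been noted as higher, so differences between the groups are given here as descriptions.

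RNA was sequenced from 4 samples of bulge cells of C57BL/6 mice, collected at postnatal day 20. The 2 knockout samples came from Cdh5CreERT2 mice with floxed Alk1 (Acvrl1) on both alleles, in which tamoxifen switches on Cre from a promoter active in endothelium. The 2 control samples came from littermates without Cre, and whether these carried floxed Alk1 is not stated in the labels. All mice, controls included, were given intraperitoneal tamoxifen at postnatal day 17 (100 µg per g), 3 days before sampling. Acvrl1 itself measured 21.6 and 24.3 CPM (read counts scaled to effective library size) in the control mice, against 17.9 and 23.1 CPM in the knockout mice, and the groups overlapped in these cells, which are not endothelium. The mice are numbered 1 and 2 in each group, and p-values measure only the spread between these samples. Depth ran from 16326906 to 29130974 counts per library. Bulge markers were abundant in every library, with Krt15, a bulge keratin, at 29088 to 36017 CPM and the bulge surface marker Cd34 at 1328 to 1949 CPM. In bulk RNA, fewer cells of a type and less RNA per cell cannot be told apart.

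Cathepsins are lysosomal proteases, made as inactive precursors and activated in the acidic lumen, and legumain is an asparaginyl protease that helps to activate several of them. Glycosidases and sulfatases remove sugars and sulfates one at a time from glycoproteins, glycolipids and glycosaminoglycans, and saposins present the lipids to these enzymes. The vacuolar ATPase pumps protons through a membrane-embedded V0 ring driven by a cytosolic V1 motor, and LAMP glycoproteins line the membrane. Tfeb and Tfe3, relatives of Mitf, bind a short palindrome called the CLEAR element near the start sites of many lysosomal genes. In mouse skin cathepsin L is known from furless mutants and knockouts, which lose hair.

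Levels were compared between genes as TPM, counts per exon base scaled to the same total in each library. Psap, the precursor of the saposins, stood highest at 1343 to 1659 TPM over the 4 libraries, and was rank 79 of the 14259 tested genes. Lamp1 followed at 615 to 672 TPM and Ctsb, a cysteine protease with endopeptidase and exopeptidase activity, at 356 to 497 TPM. The lowest members were Ctss, a cathepsin typical of antigen-presenting cells, at 2.45 to 6.18 TPM, and Ctsc, which activates granule proteases of leukocytes, at 4.76 to 7.88 TPM. In all, 17 of the 47 genes had a mean above 100 TPM, and the same number lay in the top 10% of tested genes. The plot of levels per length gives all 47 genes by class, and the leading gene could differ between libraries: among hydrolases it was Acp5 in knockout 2 and Hexa in knockout 1.

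**Figure D1:**
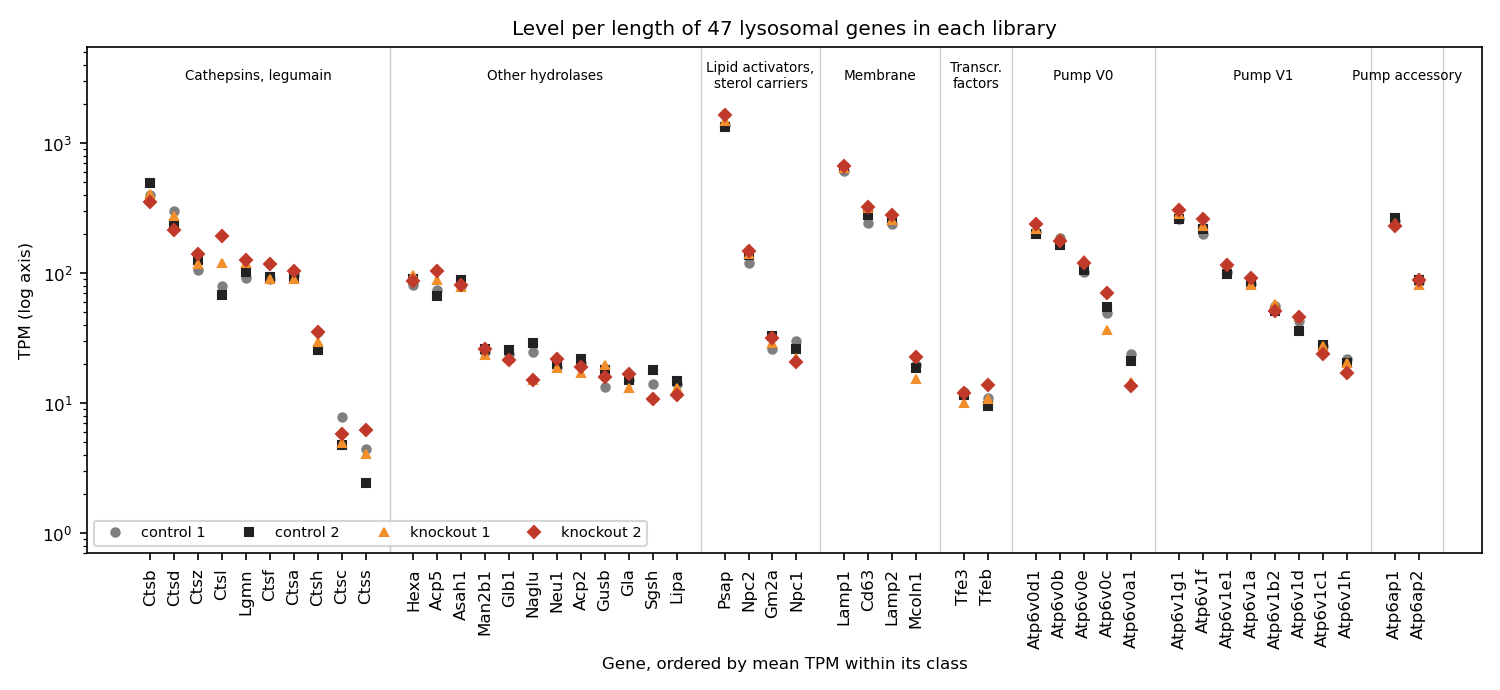
TPM of the 47 lysosomal genes (vertical log axis) in control 1 (circles), control 2 (squares), knockout 1 (triangles) and knockout 2 (diamonds), ordered by mean TPM within each class. Psap lies between 1343 and 1659 TPM, and Ctss between 2.45 and 6.18 TPM.

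Knockout libraries tended to lie above control libraries in this set. Of the 47 genes, 37 had a log2 fold change (knockout minus control) above 0, with a median of 0.20, whereas 47.5% of all tested genes were above 0, with a median of -0.02. Both knockouts lay above both controls in CPM for 26 members (55.3%), against 21.3% of all tested genes, and below both for 4 members (8.51%), against 23.6%. These counts depend on the scaling. In TPM the groups stayed apart for some of the 26, such as Psap and Cd63, and overlapped for others, such as Lamp2, Hexa, Ctsf and Tfeb. The share of all tested genes was not counted in TPM. No member passed edgeR's quasi-likelihood test after Benjamini-Hochberg adjustment over all genes at 0.05, where 0.00701% of tested genes (1 gene) were called. At an unadjusted p under 0.05, 11 members were higher (4.80% of all tested genes) and 2 lower (5.94% of all tested genes). Other fits called 1 member higher with DESeq2 (0.355% of genes with an adjusted p, and 0.657% lower), 2 with edgeR and no count filter (0.678%, and 1.11% lower) and 1 with the replicate block (0.175%, and 0.568% lower). Without knockout 1, 1 member was called higher (0.261%, and 0.174% lower), and none of these fits called a member lower. Since this contrast was in view when the genes were listed, these counts describe the set and test nothing. The smallest adjusted p of a member in the edgeR fit was 0.43.

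The summed level of the 47 genes was 6516 and 6984 CPM in controls 1 and 2 and 7896 and 8146 CPM in knockouts 1 and 2. Without Ctsl the sums were 6356 and 6845 CPM in the control mice, against 7620 and 7717 CPM in the knockout mice. The separation of the groups therefore did not rest on that gene. In TPM the 47 genes summed to 6018 and 6169 in the control mice, against 6409 and 6771 in the knockout mice. Over all tested genes the summed CPM was 976368 and 985730 in the control mice, against 1022480 and 1016190 in the knockout mice. Median library values, relative to the control mean of each gene on the log2 scale, were -0.04 and 0.04 in the control mice, against 0.17 and 0.26 in the knockout mice. The median exon length of the members was 4127 bases, and that of all tested genes 4180 bases. With each library corrected for its dependence on gene length and GC content, the median of the members was 0.24 and that of all tested genes 0.04.

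**Figure D2:**
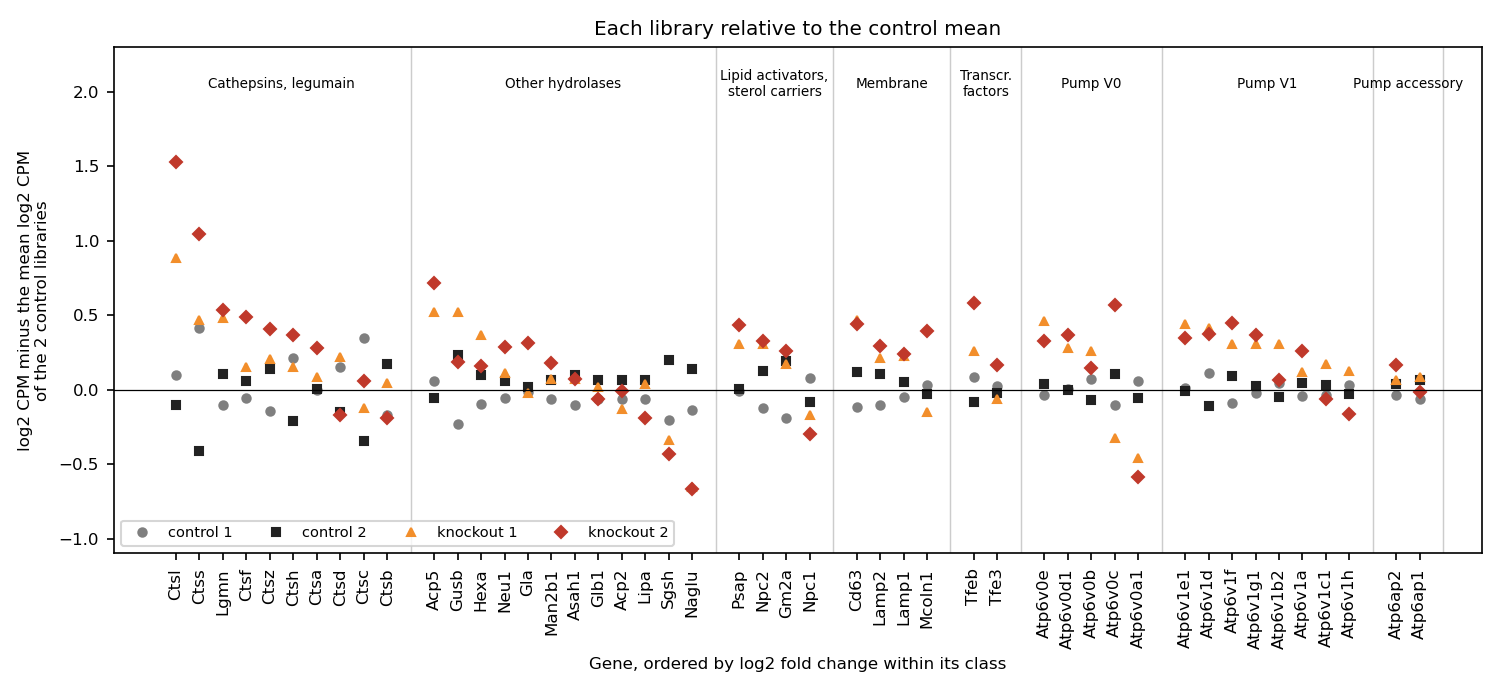
Log2 CPM of each library minus the mean log2 CPM of the 2 control libraries (vertical axis) for the 47 genes by class, with control 1 as circles, control 2 as squares, knockout 1 as triangles and knockout 2 as diamonds. Both knockouts lie above both controls for 26 genes and below both for 4.

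Other cell types were read from marker lists, and their part in these differences was not tested. Macrophages and dendritic cells are rich in lysosomes, and their markers summed to 87.6 and 74.5 CPM in the control mice, against 85.5 and 86.5 CPM in the knockout mice. Of their 13 genes 8 were tested, Mrc1 was at 0 in every library, and C1qa, C1qb and C1qc were each at or below 0.335 CPM. The 8 melanocyte markers summed to 10.1 and 17.1 CPM in the control mice, against 14.3 and 15.0 CPM in the knockout mice, with Oca2 at 0. Markers of interfollicular differentiation (7 of 7 tested) summed to 12177 and 4128 CPM in the control mice, against 8008 and 3632 CPM in the knockout mice, so they separated number 1 from number 2 within each group. Sebaceous gland markers (8 of 8 tested) summed to 863 and 504 CPM in the control mice, against 554 and 404 CPM in the knockout mice. A log2 fold change above 0 was found for 0 of the 7 interfollicular and 1 of the 8 sebaceous genes, against 47.5% of all tested genes. Their medians were -0.54 and -0.47, against -0.02. Both knockouts lay below both controls for 0 and 1 of them, against 23.6%, and above for 0 of each, against 21.3%. At an unadjusted p under 0.05 in edgeR 0 and 1 were lower and 0 of each higher, against 5.94% and 4.80%. Langerhans cell markers stayed between 2.73 and 4.49 CPM and endothelial markers between 4.50 and 16.9 CPM. The summed T cell markers lay between 24.7 and 36.8 CPM, and the groups overlapped. Of those 5 genes 4 had a log2 fold change above 0, with a median of 0.72. For 3 both knockouts lay above both controls and for 0 below, against 21.3% and 23.6% of all tested genes. At an unadjusted p under 0.05 in edgeR 2 were higher and 0 lower, against 4.80% and 5.94%. Fibroblast markers summed to 183 and 233 CPM in the control mice, and this sum was lower in both knockout mice, at 136 and 140.2 CPM. Of the 5 tested, 2 had a log2 fold change above 0, with a median of -0.13 (0.03 without a trend on length and GC). For 2 both knockouts lay below both controls and for 0 above, against 23.6% and 21.3%. At an unadjusted p under 0.05 in edgeR 2 were lower and 0 higher, against 5.94% and 4.80%.

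The transcription factors that act on lysosomal genes were present at modest levels. Tfe3 was at 10.1 to 12.2 TPM and Tfeb at 9.50 to 13.9 TPM, so their ranges overlapped. Tfeb measured 19.0 and 16.97 CPM in the control mice, against 21.6 and 26.9 CPM in the knockout mice, a log2 fold change of 0.43 ± 0.18 (SE). Both knockouts lay above both controls for Tfeb in CPM, whereas its groups overlapped in TPM. Tfe3 measured 34.7 and 33.6 CPM in the control mice, against 32.7 and 38.3 CPM in the knockout mice, and the groups overlapped. Mitf, a related factor, lay the other way, with a log2 fold change of -0.60 ± 0.12. It measured 104 and 117 CPM in the control mice, against 71.6 and 74.5 CPM in the knockout mice. The remaining relative, Tfec, was at 0 in every library.

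Start-site sequences from RefSeq (GRCm38.p6, 250 bases before to 50 after each annotated start) were found for 39 of the 47 genes. The core of the CLEAR element, CACGTG, which reads the same on both strands, occurred in at least 1 window of 15 of these 39 genes (38.5%), against 8.09% of the 27025 genes in the table. The longer form TCACGTGA, which contains that core, occurred in 7 of 39 (17.9%), against 1.12% of all genes. That form extended by G before and C after occurred in 0 of 39, against 0.370%. By class, CACGTG was found in 5 of 8 cathepsins, 4 of 11 hydrolases, 2 of 4 membrane proteins, 4 of 11 pump subunits, 0 of 3 lipid carriers and 0 of 2 transcription factors. A match is only a string of letters in this window. The 7 genes with the longer form are shown first. After them come 4 genes with the core alone, described in the sections on their classes. These are Lamp1, for its 4 copies, Ctsl, Lgmn and Naglu, and they were chosen with fold changes known. Atp6v0b, Ctsf, Glb1 and Sgsh also held the core alone and are not shown. Each sequence runs 5′ to 3′ on the strand of the gene, upstream to downstream, and capitals mark CACGTG or, where it is complete, TCACGTGA.
Ctsa (chr2:164833730-164833784, plus strand): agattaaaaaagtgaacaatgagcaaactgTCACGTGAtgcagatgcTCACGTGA
Ctsd (chr7:142387889-142387956, minus strand): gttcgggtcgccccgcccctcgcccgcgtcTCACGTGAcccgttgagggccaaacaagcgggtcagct
Gla (chrX:134601163-134601255, minus strand): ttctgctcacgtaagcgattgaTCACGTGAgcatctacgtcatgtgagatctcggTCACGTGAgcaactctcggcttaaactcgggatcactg
Mcoln1 (chr8:3500443-3500510, plus strand): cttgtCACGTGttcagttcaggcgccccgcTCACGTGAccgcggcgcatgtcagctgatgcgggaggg
Atp6v0d1 (chr8:105566061-105566098, minus strand): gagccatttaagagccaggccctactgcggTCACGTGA
Atp6v0e (chr17:26676368-26676405, plus strand): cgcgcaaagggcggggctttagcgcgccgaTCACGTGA
Atp6v1a (chr16:44139354-44139421, minus strand): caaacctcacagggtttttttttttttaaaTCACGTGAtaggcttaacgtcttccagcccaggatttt
Lamp1 (chr8:13159070-13159160, plus strand): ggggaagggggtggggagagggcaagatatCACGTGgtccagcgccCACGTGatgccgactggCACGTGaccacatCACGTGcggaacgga
Ctsl (chr13:64370721-64370770, minus strand): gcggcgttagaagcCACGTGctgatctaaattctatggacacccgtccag
Lgmn (chr12:102439106-102439171, minus strand): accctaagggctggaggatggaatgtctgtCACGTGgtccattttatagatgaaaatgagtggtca
Naglu (chr11:101069991-101070056, plus strand): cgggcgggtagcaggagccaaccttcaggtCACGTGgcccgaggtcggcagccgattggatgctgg

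Fold changes of genes with and without the core covered much of the same range. The 15 genes with CACGTG had a median log2 fold change of 0.19, from -0.67 (Naglu) to 1.24 (Ctsl), and 12 of them were above 0. The 24 genes with a window but no CACGTG had a median of 0.26, and 20 of them were above 0. Both knockouts lay above both controls for 9 of the 15 and for 15 of the 24, against 21.3% of all tested genes. They lay below both controls for 2 of the 15 and for 1 of the 24, against 23.6%.

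Among the proteases, Ctsl (chromosome 13, 64359337 to 64370890, GRCm38), a cysteine endopeptidase, showed the largest difference of the 47 genes in size. It measured 159.8 and 139 CPM in the control mice, against 276 and 429 CPM in the knockout mice, or 149 ± 14.8 against 352 ± 109 CPM (mean ± SD, n = 2 each). Both knockouts lay above both controls, and the knockouts differed more from each other than the controls did. The fold was 2.36, a log2 fold change of 1.24 ± 0.23 (SE), and it was 0.88 without knockout 2 and 1.52 without knockout 1. This is the difference for which the gene was noted, and it is given without a test. A share of 26.8% of its exon bases overlaps other annotated genes, mostly on the opposite strand. The 2 overlapping genes, Gm47123 and Gm49230, had at most 1 count in any library. Whether Ctsl lost reads there was not tested.

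Legumain, encoded by Lgmn (chromosome 12, 102394084 to 102439813), measured 65.0 and 75.3 CPM in the control mice, against 97.4 and 101 CPM in the knockout mice. Its log2 fold change was 0.50 ± 0.13, and the knockouts lay closer to each other than the controls. Ctsb measured 746 and 947 CPM in the control mice, against 866 and 737 CPM in the knockout mice, so the groups overlapped. Its log2 fold change of -0.08 ± 0.17 took the other sign without control 2 (0.13). Ctsd, the main aspartic protease of lysosomes, likewise overlapped, at 218 and 176 CPM in the control mice, against 228 and 174 CPM in the knockout mice (0.03 ± 0.18). In both Ctsb and Ctsd the spread within a group was larger than the difference between groups. A share of 34.4% of the exon bases of Ctsd overlaps Gm49369 on the same strand, which had 0 counts in every library. Whether Ctsd lost reads there was not tested.

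Among the other cathepsins, Ctsf, Ctsz and Ctsa lay higher in both knockouts. Ctsf, a cysteine protease, had a log2 fold change of 0.33 ± 0.15, Ctsz, a carboxypeptidase, 0.30 ± 0.15, and Ctsa, a serine carboxypeptidase that also protects neuraminidase and beta-galactosidase, 0.19 ± 0.12. Ctsh, an aminopeptidase, gave 0.25 ± 0.18 with overlapping groups. Ctss gave 0.75 ± 0.45 from 1.86 and 1.05 CPM in the control mice, against 1.93 and 2.87 CPM in the knockout mice, and at such low counts control 1 and knockout 1 were nearly the same. Ctsc gave -0.06 ± 0.28. The median over the 10 genes of the class was 0.28, and 0.17 without knockout 2. Per length, Ctsb and Ctsd exceeded the other cathepsins in every library, whereas the ranges of neighbours from Ctsz through Ctsl, Lgmn and Ctsf to Ctsa overlapped.

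The soluble hydrolases lay on both sides. Of 12 genes, 7 had a log2 fold change above 0, and the median was 0.10, which was 0.017 without control 1 and 0.19 without control 2. Acp5 (chromosome 9, 22126727 to 22135711), tartrate-resistant acid phosphatase, a marker of osteoclasts and macrophages, measured 46.0 and 42.5 CPM in the control mice, against 63.3 and 72.6 CPM in the knockout mice. Its groups were well apart, with a log2 fold change of 0.62 ± 0.13. Of the 8 tested macrophage and dendritic cell markers 6 had a log2 fold change above 0, against 47.5% of all tested genes, with a median of 0.16. Both knockouts lay above both controls for 1 of the 8 and below for 0, against 21.3% and 23.6%. At an unadjusted p under 0.05 in edgeR 0 were higher and 0 lower, against 4.80% and 5.94%. The part of these cells in the difference of Acp5 was not tested. Acp2, the general lysosomal acid phosphatase, gave -0.07 ± 0.14.

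Naglu (chromosome 11, 101070012 to 101077672), an N-acetylglucosaminidase of heparan sulfate breakdown, lay lower in knockouts. It measured 20.1 and 24.2 CPM in the control mice, against 13.97 and 13.8 CPM in the knockout mice, a log2 fold change of -0.67 ± 0.18. Sgsh, the sulfatase of this class, measured 19.2 and 25.3 CPM in the control mice, against 17.4 and 16.3 CPM in the knockout mice (-0.40 ± 0.19). These were the 2 of 12 hydrolases with both knockouts below both controls, against 23.6% of all tested genes. Of the exon bases of Sgsh, 21.6% overlap Card14 on the opposite strand, which measured 20.5 and 5.99 CPM in the control mice, against 11.3 and 8.43 CPM in the knockout mice.

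Hexa, the alpha subunit of beta-hexosaminidase and the highest hydrolase per length at 81.3 to 97.6 TPM, measured 49.7 and 56.7 CPM in the control mice, against 68.4 and 59.3 CPM in the knockout mice (0.26 ± 0.14). Its ranges in TPM overlapped with those of Acp5, which in turn overlapped with Asah1, acid ceramidase. Neu1, the sialidase, gave 0.20 ± 0.15 and Man2b1, an alpha-mannosidase, 0.12 ± 0.12, both with the knockouts above the controls. The groups overlapped for Gusb, beta-glucuronidase (0.34 ± 0.21), Gla, alpha-galactosidase (0.15 ± 0.19), Asah1 (0.07 ± 0.12), Glb1, beta-galactosidase (-0.03 ± 0.15), and Lipa, which hydrolyses cholesteryl esters (-0.08 ± 0.15). From Man2b1 down to Lipa, each gene overlapped its neighbour in the order of levels per length.

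Among the lipid helpers, Psap (chromosome 10, 60277627 to 60302597) measured 1151 and 1161 CPM in the control mice, against 1432 and 1558 CPM in the knockout mice. The controls were nearly equal, both knockouts lay above them, and the log2 fold change was 0.37 ± 0.12. Npc2, the soluble cholesterol carrier of the lumen, measured 201 and 239 CPM in the control mice, against 270.2 and 275 CPM in the knockout mice (0.31 ± 0.13). Its membrane partner Npc1 had the opposite sign, with 105 and 93.9 CPM in the control mice, against 88.3 and 80.7 CPM in the knockout mice (-0.24 ± 0.12). Npc1 has 11317 exon bases, and its log2 fold change came to -0.04 once the trend on length and GC was taken out. Gm2a, the activator that presents ganglioside to hexosaminidase, measured 32.9 and 42.8 CPM in the control mice, against 42.2 and 45.0 CPM in the knockout mice, and overlapped. The median of the 4 genes was 0.26, and it was 0.11 without control 1 and 0.42 without control 2.

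All 4 membrane proteins had a log2 fold change above 0, with a median of 0.24. Cd63 (chromosome 10, 128900989 to 128912822), a tetraspanin of late endosomes and exosomes, measured 275 and 324 CPM in the control mice, against 413 and 405 CPM in the knockout mice (0.45 ± 0.13). Lamp1 (chromosome 8, 13159161 to 13175338) measured 503 and 542 CPM in the control mice, against 610.1 and 616 CPM in the knockout mice (0.23 ± 0.12). Lamp2, which also serves chaperone-mediated autophagy, gave 0.25 ± 0.13. The knockouts lay above the controls for these 3 of the 4 genes, against 21.3% of all tested genes. Mcoln1, the lysosomal calcium channel, overlapped, with 46.0 and 44.1 CPM in the control mice, against 40.5 and 59.1 CPM in the knockout mice (0.15 ± 0.20). The plot of CPM by group shows several of these genes beside the proteases and pump subunits.

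**Figure D3:**
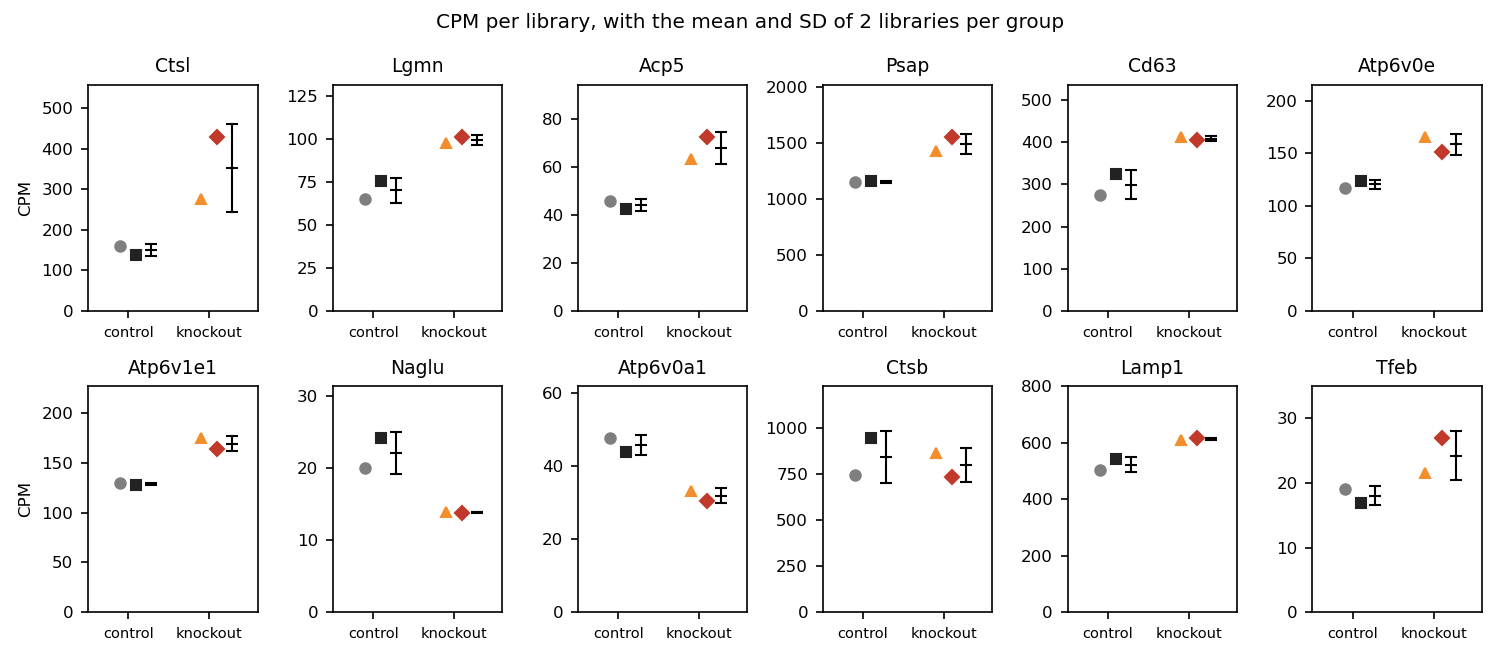
CPM (vertical axes from 0) of 12 lysosomal genes in control 1 (circle), control 2 (square), knockout 1 (triangle) and knockout 2 (diamond), with bars for the mean and SD of the 2 libraries per group. Ctsl lies at 159.8 and 139 CPM in controls and at 276 and 429 CPM in knockouts, Naglu and Atp6v0a1 lie lower in knockouts, and Ctsb overlaps.

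Proton pump genes differed by small amounts. Of the 15 genes 13 had a log2 fold change above 0, against 47.5% of all tested genes, with a median of 0.19. The library medians were -0.02 and 0.02 in controls and 0.26 in both knockouts. Both knockouts lay above both controls for 10 of the 15 and below both for 1, against 21.3% and 23.6% of all tested genes. In the V1 motor, Atp6v1e1 (chromosome 6, 120794305 to 120822793), a peripheral stalk subunit, measured 129 and 128 CPM in the control mice, against 174 and 164 CPM in the knockout mice (0.40 ± 0.11). The central stalk subunit Atp6v1d measured 61.1 and 52.3 CPM in the control mice, against 75.2 and 73.1 CPM in the knockout mice (0.39 ± 0.13). Atp6v1f, also of the central stalk, measured 65.4 and 74.0 CPM in the control mice, against 86.2 and 94.9 CPM in the knockout mice (0.38 ± 0.13). Atp6v1g1, the other peripheral stalk subunit, measured 91.0 and 94.2 CPM in the control mice, against 115 and 119 CPM in the knockout mice (0.34 ± 0.11). None of these 4 genes had overlapping groups. Each had an unadjusted p under 0.05 in edgeR, which was a ground for naming it, so the separation is no further result.

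In the catalytic hexamer, the nucleotide-binding subunits Atp6v1a and Atp6v1b2 both gave 0.19, with SEs of 0.12 and 0.13 and the knockouts above the controls. The regulatory subunits Atp6v1c1 (0.06 ± 0.14) and Atp6v1h overlapped between groups. Atp6v1h measured 65.6 and 62.8 CPM in the control mice, against 70.0 and 57.4 CPM in the knockout mice (-0.01 ± 0.14). Per length, the V1 subunits ran from Atp6v1g1 at 262 to 307 TPM and Atp6v1f at 201 to 261 TPM down to Atp6v1h at 17.2 to 22.0 TPM, and no neighbours in that order had overlapping ranges.

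In the membrane part, Atp6v0e (chromosome 17, 26663231 to 26699647), a small V0 subunit, measured 117 and 124 CPM in the control mice, against 166 and 151 CPM in the knockout mice (0.40 ± 0.12). Atp6v0d1, which couples the ring to the central stalk, measured 114 CPM in both controls and 139 and 147 CPM in knockouts (0.33 ± 0.11). Atp6v0b, a proteolipid of the proton-carrying ring, measured 118 and 107 CPM in the control mice, against 135 and 125 CPM in the knockout mice (0.20 ± 0.12). Knockouts lay above controls for these 3 of the 5 V0 genes, against 21.3% of all tested genes. Of the accessory subunits, Atp6ap1 was at 233 and 254 CPM in the control mice, against 258 and 241 CPM in the knockout mice (0.03 ± 0.12). Atp6ap2, also known as the prorenin receptor, measured 69.2 and 72.8 CPM in the control mice, against 74.3 and 79.5 CPM in the knockout mice (0.11 ± 0.12).

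Atp6v0c, the main proteolipid of the ring, differed widely between the knockouts. It measured 51.0 and 58.9 CPM in the control mice, against 43.8 and 81.2 CPM in the knockout mice, and its log2 fold change of 0.19 ± 0.28 turned to -0.33 without knockout 2 and was 0.56 without knockout 1. Its processed pseudogene Atp6v0c-ps2 had 231 and 334 counts in the control mice, against 393 and 6 counts in the knockout mice, so knockout 2, where Atp6v0c was highest, held almost none. Summed, the gene and the pseudogene measured 64.8 and 70.2 CPM in the control mice, against 61.9 and 81.5 CPM in the knockout mice. Counts of near-identical copies can be split by the read counting, so the value of Atp6v0c is uncertain, and whether reads passed between the copies was not tested.

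Atp6v0a1 (chromosome 11, 101009452 to 101063719), an isoform of subunit a that is abundant in neurons, lay lower in knockouts. It measured 47.7 and 44.0 CPM in the control mice, against 33.4 and 30.6 CPM in the knockout mice, a log2 fold change of -0.52 ± 0.13. It was the only pump gene of the 15 with both knockouts below both controls. Atp6v0a1 and Naglu are neighbours on chromosome 11, on the same strand, with 6292 bases between them. Of the 6 other tested genes within 50 kb, all had overlapping groups, and their log2 fold changes ran from -0.16 to 0.20; this stretch was looked at after the values of both genes had been seen.

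Several pump subunits have paralogues, which differ in tissue and in the membrane they serve. For subunit a, no paralogue dominated: in control 1, Atp6v0a1, Atp6v0a2, Tcirg1 and Atp6v0a4 made up 22.5%, 26.7%, 32.8% and 18.1% of their summed TPM. The share of Atp6v0a1 was 22.5% and 23.1% in the controls, with 15.6% and 14.3% for the knockouts. Atp6v0a4, an isoform of acid-secreting epithelia, was at 18.1% and 10.8% in the control mice, against 24.2% and 26.3% in the knockout mice. In CPM, Atp6v0a4 measured 29.1 and 15.6 in the control mice, against 39.2 and 42.8 in the knockout mice (0.88 ± 0.29). The sum of the 4 was 106 and 92.2 TPM in the control mice, against 92.7 and 95.5 TPM in the knockout mice, and overlapped.

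Subunit e has a pair of genes that lay on opposite sides. Atp6v0e2, the paralogue of Atp6v0e, measured 13.0 and 20.8 CPM in the control mice, against 7.91 and 5.89 CPM in the knockout mice (-1.29 ± 0.30), while Atp6v0e lay higher there. The sum of both was 121 and 133 TPM in the control mice, against 137 and 126 TPM in the knockout mice, and the groups overlapped. For subunits d, E and G a single gene gave nearly all transcripts, with Atp6v0d1 at 99.6% to 99.9%, Atp6v1e1 at 100% and Atp6v1g1 at 99.3% to 99.5% of the summed TPM. Atp6v1b2 gave 89.6% to 94.6% of subunit B. Subunit C was shared, and Atp6v1c2, an epithelial isoform, measured 29.9 and 13.2 CPM in the control mice, against 23.6 and 16.2 CPM in the knockout mice. Its libraries stood in nearly the same order as the interfollicular differentiation markers, high in number 1 of each group, and the part of those cells was not tested. The sums over paralogues were chosen after the values of single genes had been seen.

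**Figure D4:**
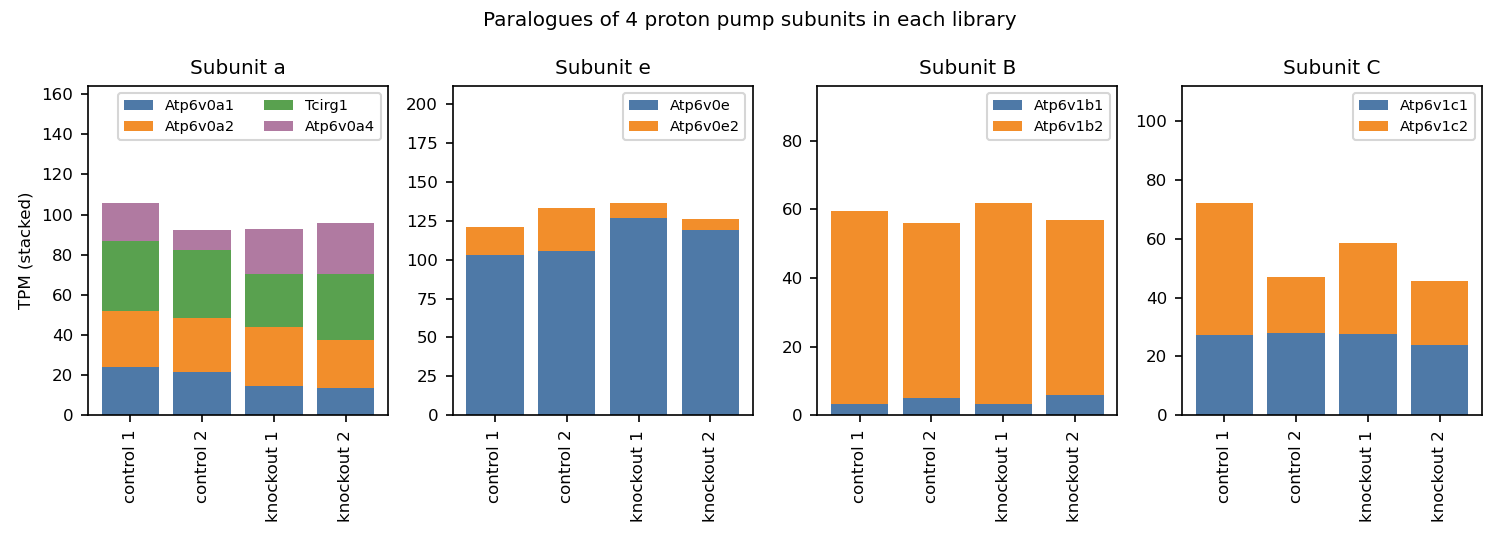
Stacked TPM (vertical axes from 0) of the paralogues of pump subunits a, e, B and C in each of the 4 libraries. The sum for subunit a runs from 92.2 to 106 TPM and that for subunit e from 121 to 137 TPM, while Atp6v0a1 and Atp6v0e2 take a smaller part in both knockouts.

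Lysosomal genes outside the 47 were read from further lists, with the same test. Of 29 further hydrolases 10 had a log2 fold change above 0, with a median of -0.06, and of 20 tested membrane proteins 11 were above 0, with a median of 0.04. Of 9 further pump genes tested, 4 were above 0 (median -0.06). Without the trend on length and GC, the medians were 0.007 for hydrolases, 0.13 for membrane proteins and -0.006 for pump genes. That of all tested genes was then 0.04. Naaa, an amidase of lipid mediators, measured 14.5 and 11.7 CPM in the control mice, against 9.01 and 5.32 CPM in the knockout mice (-0.87 ± 0.30). Among other cathepsins, Ctso gave 0.10 ± 0.14, and Ctse was at 0 in every library. In edgeR's test adjusted over all genes, 0 genes of any further list were called; at an unadjusted p under 0.05, 2 further hydrolases, 2 membrane proteins and 1 pump gene were higher, and 1 of each was lower. Over all tested genes the shares at that p were 4.80% higher and 5.94% lower, and 2 of 29 hydrolases is near the former. DESeq2 called Gpnmb, Sorl1 and Atp6v0e2.

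In the list of other membrane proteins Gpnmb, a glycoprotein of lysosomes and melanosomes, had the largest difference, 15.7 and 14.6 CPM in the control mice, against 68.9 and 98.4 CPM in the knockout mice (2.47 ± 0.20, edgeR adjusted p = 0.080). Cd68, a lysosomal glycoprotein abundant in macrophages, measured 3.95 and 3.69 CPM in the control mice, against 4.92 and 12.8 CPM in the knockout mice (1.21 ± 0.47), and only knockout 2 stood well above the rest. Of 12 tested sorting genes 8 were above 0 (median 0.09), and those of largest difference were the sorting receptors Sorl1 (-1.28 ± 0.15) and Sort1 (-0.51 ± 0.12), both lower in the 2 knockouts. At an unadjusted p under 0.05 in edgeR 2 of the 12 were lower and 0 higher, against 5.94% and 4.80% of all tested genes. Cystatins inhibit cathepsins in the cytosol and outside cells. Of 5 tested cystatins 3 were above 0 (median 0.32), with Cst6, an inhibitor of cathepsin L and legumain, at 137 and 85.6 CPM in the control mice, against 171 and 239 CPM in the knockout mice (0.88 ± 0.26). Csta1 gave -0.47 ± 0.60, and 3 of the 5 were higher at an unadjusted p under 0.05 in edgeR, against 4.80% of all tested genes.

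The kinase complex mTORC1 is anchored at the lysosome and holds Tfeb in the cytosol. A list of its subunits, anchors and regulators, to which Mitf and the repressor Zkscan3 also belonged, had 16 tested genes. Of these 7 were above 0, with a median of -0.06, which was 0.03 without the trend on length and GC. Mtor itself measured 73.6 and 70.4 CPM in the control mice, against 56.0 and 52.2 CPM in the knockout mice (-0.41 ± 0.12), and at an unadjusted p under 0.05 in edgeR 4 of the 16 were lower (Mitf, Mtor, Rptor and Tsc2) and 0 higher, against 5.94% and 4.80% of all tested genes. Autophagy genes deliver cargo to the lysosome, and 15 of 17 were above 0, with a median of 0.24 (also 0.24 without the trend on length and GC). Both knockouts lay above both controls for 9 of the 17 and below for 0, against 21.3% and 23.6% of all tested genes, and 2 were higher at an unadjusted p under 0.05 in edgeR, against 4.80%. Optn, a selective autophagy receptor, gave 0.76 ± 0.33 and Wipi1, a phosphoinositide-binding protein, 0.67 ± 0.38, each with knockout 2 well above knockout 1.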

How the data were processed

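Raw counts per Ensembl gene were deposited by the authors for 4 libraries, which per the labels were polyA-selected and directional. Per the submitters' processing notes, Trim Galore 0.6.0, cutadapt, FastQC, STAR 2.7.0e, GRCm38 (mm10) and DESeq2 1.26.0 were used. The read counter, strand option and annotation were not given in sources used here, so overlapping and antisense genes are uncertain. Symbols, coordinates and exon lengths came from GENCODE M21 (GRCm38), in which all 55536 identifiers matched.

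Genes kept by filterByExpr were compared with edgeR 4.0.16 (R 4.3.3; TMM, robust quasi-likelihood fit, no covariates, Benjamini-Hochberg threshold of 0.05). CPM used effective library sizes, TPM used union exon length, and SE is the log2 fold change divided by the root of F. The fit was tested on simulated data. The chi-square per degree of freedom between replicates was 34.5 (controls) and 45.7 (knockouts), so none was a duplicate.

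Members and lists were chosen with earlier results of these data known. Library values are given for Ctsl and, per class, the 2 members of highest TPM, those of largest difference in each direction and those with an unadjusted p under 0.05. Of other lists, up to 2 genes of largest difference with at least 2 CPM are named. A gene that this rule names is not reported here. Genes named beyond this were chosen after their values were seen. Alternatives were RLE normalization, other count filters, DESeq2 1.42.0, the replicate number as a block, removal of a length and GC trend (splines with 4 degrees of freedom), and each library left out.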

Additional observations from a re-analysis of the deposited data

How the results depend on the processing

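The median log2 fold change of the 47 genes stayed between 0.16 and 0.26 in the main fit and 11 alternatives, and 33 of the 47 genes kept their sign in each. Over all genes, calls (higher and lower) went from 1 and 0 to 163 and 267 without a count filter, 33 and 61 with DESeq2, 25 and 81 with the replicate block, 2 and 0 with offsets for length and GC, and 5 and 16 with block and offsets together. Leaving out each library gave 1 to 39 higher and 0 to 26 lower; the 39 and 26 came without knockout 1. Members called higher were 2 without a count filter (Ctsl and Acp5), 1 with DESeq2, 1 with the replicate block and 0 to 1 with each library left out (Ctsl each time, the last without knockout 1); none was called lower. Ctsl was the gene noted when the list was made, so its calls describe the fits and are no test of it. Fits that lack 1 library of a group assume that the lone sample varies like the others. Class medians with a library left out ran from 0.17 to 0.37 for cathepsins, 0.017 to 0.19 for hydrolases, 0.11 to 0.42 for lipid carriers, 0.18 to 0.34 for membrane proteins and 0.24 to 0.26 for the pump. With those offsets, the membrane median was 0.35 (0.34 with the block) and the pump median 0.26 (0.26 with the block). For the shifts of counts and medians the cause was not tested. The labels give no pairing, and same-numbered libraries correlated at 0.12 in their deviations from the group means. With 2 libraries per group, single low genes such as Ctss (31 counts at the fewest) are measured loosely.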
